A study of Rattus norvegicus with 15 samples.

Results

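The proteasome and ubiquitin conjugating genes were followed through 15 mammary tumours of female rats. They comprised every gene whose rat symbol starts with Psma, Psmb, Psmc, Psmd or Psme and a digit, or with Ube2, apart from the immunoproteasome genes Psmb8, Psmb9 and Psmb10 and the mitotic gene Ube2c. Of 66 such genes with a probe on the array, 62 passed the filter on low signal, out of 8378 genes tested in all. They were 37 proteasome genes, 23 Ube2 genes and 2 genes whose names begin alike but which encode no proteasome subunit (Psmc3ip and Psme3ip1). The 4 genes that did not pass were Psma8 and Ube2ql1, well above background on 0 of 15 arrays, Ube2q2l on 1 and Ube2t on 2. A further 23 protein-coding symbols that fit the rule had no probe that could be named and were not analysed here.

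The tumours came from Sprague-Dawley rats of 3 early-life diets, 5 arrays each, and the question was what the zinc supply of the mother and the pup leaves behind in tumours of the adult. Zinc-deficient chow (ZnD) held 3 mg/kg of zinc, adequate chow (ZnA) 35 mg/kg and supplemented chow (ZnS) 180 mg/kg. The chow went to 16 dams per group from gestation day 10 to weaning on day 21, and to their daughters until day 51. On day 51 every animal, those of the adequate diet included, received the mammary carcinogen DMBA (7,12-dimethylbenz[a]anthracene, 50 mg/kg by gavage), and all then ate adequate chow until the tumours were taken on day 180. So the diets differed only before tumours were induced. The label negative control was taken to mean the adequate diet, and 1 label field that speaks of mammary gland on day 21 was set aside for the characteristics and the design, which give tumours on day 180. Nothing in the labels ties the tumours to animals or litters, so each p-value measures the spread between these tumours.

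The proteasome is the barrel-shaped protease that breaks down most short-lived and damaged proteins of a cell. Its core particle is built from outer alpha rings and inner beta rings, and 3 of the beta subunits carry the cutting sites. A regulatory particle with a ring of ATPases recognises, unfolds and feeds in proteins that carry a chain of ubiquitin, and that chain is put on by a cascade in which the Ube2 enzymes take ubiquitin from the activating enzyme and pass it on with the help of a ligase. Tumour cells with a high rate of protein synthesis are known to depend on this system, and the proteasome genes are known to be transcribed together, in mammals under Nfe2l1 and Nfe2l2.

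A level is the log2 signal of a probe minus the array's own 75th percentile, so a level below 0 is one under that percentile. Levels of different genes come from different probes and are not set against each other. Each of 4 slides held all 3 diets, and arrays varied in brightness: 13854 to 24009 of 43379 spots stood well above background, with 2 deficient tumours (replicates 1 and 4) and 1 adequate tumour (replicate 2) as the 3 dimmest. Of 8 markers of luminal epithelium 7 were measured, all above background on 15 arrays, and Esr1 did not pass the filter. Of the red cell markers 4 of 4 were higher in deficient than in adequate tumours, 3 with an unadjusted p under 0.05. The background was 44.2% of all genes above 0 and 3.96% under 0.05. In supplemented against deficient tumours 4 of 4 were lower, all 4 under 0.05 (background 45.6% below 0 and 6.10% under 0.05), with 0 called in both. Their mean level ran from 0.85 to 3.02 in deficient, -1.39 to 1.35 in adequate and -1.16 to -0.19 in supplemented tumours. Among them Alas2 and Ahsp stood well above background on 7 of 15 arrays, so these means include values near background. The part of the red cell markers in the differences below was not tested. The RNA was of whole tumour, in which fewer cells of a type and less RNA per cell cannot be told apart.

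The promoters are shown first for 6 proteasome genes on which the results turn: the cutting subunits Psmb5 and Psmb6, the assembly chaperone Psmd9, whose level went most closely with the other proteasome genes, and Psmb1, Psmb4 and Psmc4, the proteasome genes with an unadjusted p under 0.05 between supplemented and deficient tumours. RefSeq's table for GRCr8 held a promoter, from 250 bases before to 50 bases after the start of the gene, for 55 of the 62 genes; Psma7, Psmd6, Psmd12, Psmd14, Ube2r2 and Ube2v2 were among those with none there. The positions are chr15:32047330-32047629 (minus strand), chr10:55737638-55737937 (plus strand), chr12:39018215-39018514 (minus strand), chr1:65134721-65135020 (minus strand), chr2:185134512-185134811 (minus strand) and chr1:92485011-92485310 (minus strand). Each is written 5′ to 3′ along the gene, and the capitals mark TGACNNNGC, the core of the element that Nfe2l1 and Nfe2l2 bind with a small Maf partner, and CCAAT, the box that NF-Y binds, on either strand.
Psmb5: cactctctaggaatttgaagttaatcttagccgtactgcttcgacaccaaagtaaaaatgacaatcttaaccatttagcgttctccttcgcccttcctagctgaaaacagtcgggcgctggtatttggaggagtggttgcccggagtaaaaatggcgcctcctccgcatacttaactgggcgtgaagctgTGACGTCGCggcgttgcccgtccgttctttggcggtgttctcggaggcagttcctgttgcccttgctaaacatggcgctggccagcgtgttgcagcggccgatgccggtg
Psmb6: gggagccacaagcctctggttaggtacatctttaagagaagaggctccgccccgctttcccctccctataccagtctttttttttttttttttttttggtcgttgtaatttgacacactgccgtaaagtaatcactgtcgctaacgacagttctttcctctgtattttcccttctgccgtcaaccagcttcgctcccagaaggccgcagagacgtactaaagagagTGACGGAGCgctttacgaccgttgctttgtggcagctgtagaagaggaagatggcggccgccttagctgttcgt
Psmd9: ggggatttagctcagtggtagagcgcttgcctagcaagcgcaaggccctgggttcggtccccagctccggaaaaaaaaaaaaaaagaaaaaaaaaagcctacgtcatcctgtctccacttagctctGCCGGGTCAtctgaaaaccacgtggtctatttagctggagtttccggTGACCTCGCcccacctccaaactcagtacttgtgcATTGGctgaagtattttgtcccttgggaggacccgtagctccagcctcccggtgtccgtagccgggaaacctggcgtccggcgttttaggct
Psmb1: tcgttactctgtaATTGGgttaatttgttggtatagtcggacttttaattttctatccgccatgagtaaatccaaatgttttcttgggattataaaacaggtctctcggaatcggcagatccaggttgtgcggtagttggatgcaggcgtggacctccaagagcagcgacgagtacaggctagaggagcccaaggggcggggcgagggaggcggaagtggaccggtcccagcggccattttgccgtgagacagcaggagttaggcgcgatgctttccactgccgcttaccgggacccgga
Psmb4: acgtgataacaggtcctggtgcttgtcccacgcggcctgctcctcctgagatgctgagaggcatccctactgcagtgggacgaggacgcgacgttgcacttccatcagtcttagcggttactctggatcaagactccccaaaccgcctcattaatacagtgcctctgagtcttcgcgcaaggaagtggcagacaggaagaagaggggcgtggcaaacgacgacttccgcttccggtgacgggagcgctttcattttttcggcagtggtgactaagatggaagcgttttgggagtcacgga
Psmc4: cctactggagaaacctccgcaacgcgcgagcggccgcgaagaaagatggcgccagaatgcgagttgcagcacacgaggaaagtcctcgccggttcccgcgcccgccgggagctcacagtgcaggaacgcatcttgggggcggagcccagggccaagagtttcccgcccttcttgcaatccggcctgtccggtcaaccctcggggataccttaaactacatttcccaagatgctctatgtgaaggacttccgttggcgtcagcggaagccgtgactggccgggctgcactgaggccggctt

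In Psmb5 and Psmb6 the single TGACNNNGC match began at position -60 and -24 from the start, and Psmd9 had a pair of matches, at -124 and -77, beside a CCAAT on the reverse strand. Psmb1 held a CCAAT and no TGACNNNGC, and neither motif lay in the windows of Psmb4 and Psmc4. Over all 33 proteasome genes with a promoter, 8 held TGACNNNGC (24.2%): Psma3, Psmb2, Psmb5, Psmb6, Psmd1, Psmd3, Psmd9 and Psme4. Among 20 Ube2 promoters 6 held it (30.0%), and among all 19005 protein-coding promoters 12.7%. CCAAT was present in 17 of 33 proteasome promoters (51.5%), 6 of 20 Ube2 promoters (30.0%) and 38.4% of all promoters. In 1 gene, Psmb2, both motifs overlapped. The median share of G and C was 66.7% for Ube2 promoters, against 56.0% for the proteasome and 55.3% for all promoters. Among the 6884 promoters of genes tested, the median was 60.7%, TGACNNNGC was present in 14.6% and CCAAT in 38.5%. A match is a stretch of letters and no evidence of binding.

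No proteasome or Ube2 gene passed the test between any 2 diets. Limma called 0 of 62 genes at an adjusted p under 0.05 in deficient against adequate, supplemented against adequate and supplemented against deficient tumours, and 0 in the F test over the 3 diets, where 0 of 21011 probes (0%) were called in each. At an unadjusted p under 0.05 there were 2 genes (both lower) for deficient against adequate tumours, beside a background of 3.96% of all genes, 2.52% lower and 1.44% higher. There were 0 for supplemented against adequate tumours (background 1.90%, with 0.776% higher and 1.12% lower) and 5, all higher, for supplemented against deficient tumours (background 6.10%, with 3.45% higher and 2.65% lower). The F test gave 1, Psmc4 (background 3.76%), with an adjusted p of 0.990 from limma.

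The signs were less even than the sizes. In deficient against adequate tumours 51 of 62 genes had a difference below 0 (background 55.8%, and 44.2% above 0): 34 of 37 proteasome genes and 16 of 23 Ube2 genes. The median difference was -0.13 for the proteasome and -0.07 for the Ube2 genes, against -0.03 for all genes tested. Under the normexp background correction 52 of 62 genes lay below 0, after quantile normalization 51 and in the authors' deposited log2 values 46. In supplemented against deficient tumours 51 of 62 were above 0 (background 54.4%, and 45.6% below 0), 33 of 37 and 16 of 23. The medians were 0.14 and 0.10 against 0.03 for all genes. Under normexp these medians turned to -0.20 and -0.12 and 15 of 62 genes lay above 0. After quantile normalization 47 of 62 lay above 0, and in the deposited values 46. Supplemented against adequate tumours gave 36 above and 26 below 0 (background 49.2% above and 50.8% below 0) and medians of 0.02 and 0.02. Normexp moved these medians to -0.43 and -0.32 with 7 of 62 above 0. After quantile normalization 34 of 62 lay above 0 there, and in the deposited values 30. The comparisons share tumours, so the deficient tumours enter both of the larger counts, and genes that vary together between tumours are not independent.

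The median over proteasome genes of the level minus the gene's own mean was -0.24, -0.09, -0.03, -0.14 and 0.07 in the 5 deficient tumours. It was 0.01, -0.22, 0.27, 0.21 and -0.07 in adequate tumours and -0.02, 0.14, 0.07, 0.11 and -0.05 in supplemented tumours. Adequate tumours spread the widest, from the second lowest to the highest value of all 15, and the diets overlapped. For the Ube2 genes the same measure ran from -0.15 to 0.02 in deficient, -0.18 to 0.17 in adequate and 0.02 to 0.12 in supplemented tumours. In the adequate tumour of replicate 3, 1 of 37 proteasome genes stood below its own mean, and in the deficient tumour of replicate 1, 33 of 37 stood below it.

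**Figure D1:**
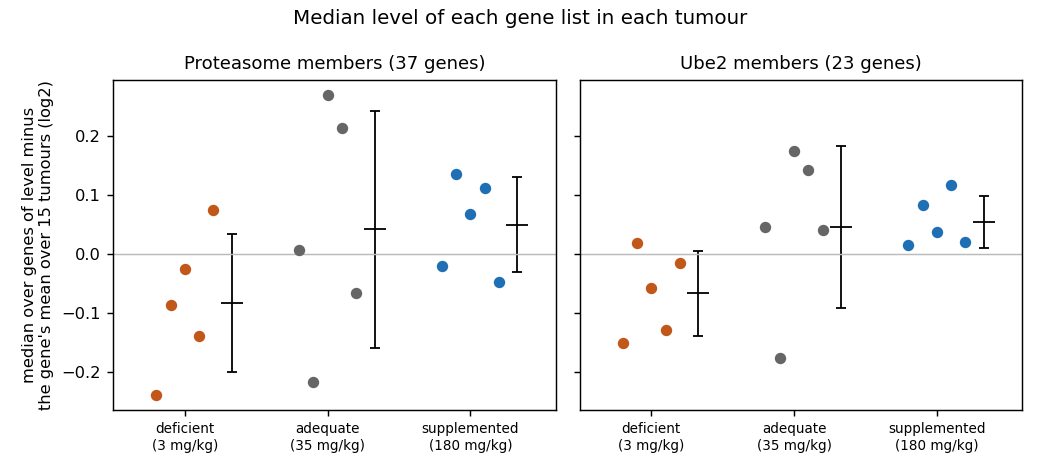
Median over the proteasome genes (left) and Ube2 genes (right) of the log2 level minus the gene's mean over 15 tumours, one point per tumour, by diet from 3 to 180 mg/kg of zinc; bars are the mean ± SD of 5 tumours. The diets overlap, and the adequate tumours run from -0.22 to 0.27 in the proteasome panel; under normexp the supplemented tumours lie below the deficient ones in the median difference.

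The lowest proteasome medians belonged to the 3 dimmest arrays: -0.24 with 16679 spots well above background, -0.22 with 16214 and -0.14 with 13854. Deficient tumours held 2 of these arrays, adequate tumours 1 and supplemented tumours 0. Without the 3 arrays the median of the proteasome was 0.05 for supplemented against deficient tumours, with 29 of 37 genes above 0 and 1 member at an unadjusted p under 0.05. With brightness as a covariate it was 0.13, with 33 of 37 above 0. Within the 4 slides, which hold 1 or 2 tumours of a diet each, it was 0.18, 0.19, 0.15 and -0.11. For deficient against adequate tumours the slides gave -0.22, 0.18, -0.34 and 0.01, so the sign did not hold in 2 of 4 slides. For supplemented against adequate tumours they gave -0.05, 0.33, -0.14 and -0.11. Without the 3 dimmest arrays 33 of 37 proteasome genes lay below 0 in deficient against adequate tumours, and 30 with brightness as a covariate. In supplemented against adequate tumours 22 proteasome genes lay above and 15 below 0 on all arrays. These counts were 11 and 26 without the 3 dimmest arrays, and 24 and 13 with the covariate.

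**Figure D2:**
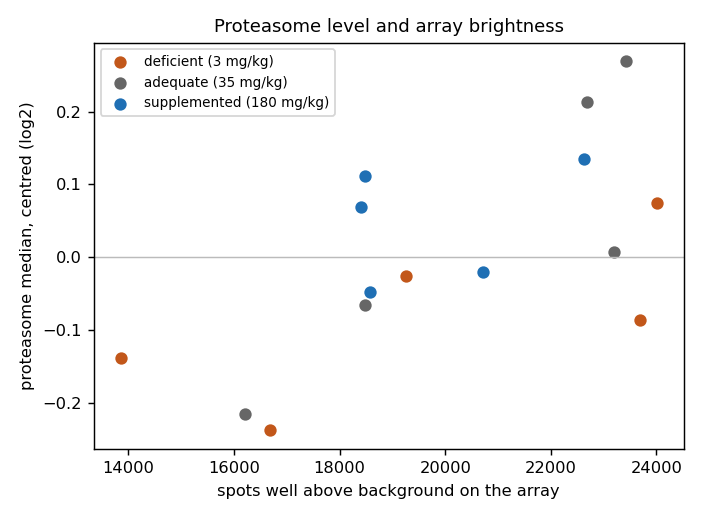
Median centred level of the 37 proteasome genes (y axis, log2) against the number of spots well above background on the array (x axis), one point per tumour, coloured by diet. The 3 arrays with the fewest such spots, between 13854 and 16679, have the 3 lowest medians, and on the other 12 arrays the medians run from -0.09 to 0.27.

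The beta ring, which holds the cutting sites, had the largest median among the proteasome groups in both comparisons with deficient tumours, and 0.02 in supplemented against adequate tumours. All 7 genes had a level below that of adequate tumours in the deficient ones (median -0.24) and above that of deficient tumours in the supplemented ones (median 0.28). Psmb4, a structural beta subunit, stood at 5.22, 5.38, 5.32, 5.45 and 5.46 in deficient tumours, at 5.63, 5.28, 5.82, 5.71 and 5.51 in adequate tumours and at 5.54, 5.77, 5.78, 5.80 and 5.66 in supplemented tumours. Every supplemented tumour lay above every deficient one, while adequate tumours reached across both. The mean was 5.71 ± 0.11 (SD, n = 5) in supplemented and 5.37 ± 0.10 (n = 5) in deficient tumours, a difference of 0.34 (95% interval 0.05 to 0.64, limma adjusted p = 0.701), with 0.20 to 0.42 within the slides. Under normexp the difference was -0.04, after quantile normalization 0.35 and in the deposited values 0.32.

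Psmb1, another structural beta subunit, had levels of 2.86, 3.04, 2.32, 2.95 and 2.99 in deficient tumours, 3.00, 2.93, 3.82, 3.41 and 3.05 in adequate tumours and 3.21, 3.50, 3.09, 3.26 and 3.27 in supplemented tumours. The supplemented and deficient tumours again did not overlap, and the deficient tumour of replicate 3 was far below its group. The means were 3.26 ± 0.15 in supplemented and 2.83 ± 0.29 in deficient tumours (SD, n = 5 each), a difference of 0.43 (95% interval 0.02 to 0.84, limma adjusted p = 0.703). It was 0.30 without that tumour and 0.25 to 0.63 within the slides. Under normexp it was -0.04, after quantile normalization 0.40 and in the deposited values 0.29. Psmb1 and Psmb4 were the 2 members whose supplemented and deficient groups did not overlap, beside a background of 1.49% of all genes. In the comparisons with adequate tumours 0 members did so (background 0.466% for deficient and 0.359% for supplemented tumours).

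The cutting subunits gave wider intervals. Psmb6, the caspase-like subunit, had levels of 1.74, 2.16, 2.26, 0.64 and 2.38 in deficient tumours, 2.06, 1.89, 2.43, 2.43 and 2.31 in adequate tumours and 2.21, 2.22, 2.08, 2.26 and 1.90 in supplemented tumours. The low value of 0.64 belonged to the array with the fewest spots well above background, and the remaining levels overlapped. Psmb7, the trypsin-like subunit, ran from 1.30 to 1.79 in deficient, 0.96 to 2.02 in adequate and 1.23 to 2.80 in supplemented tumours. Psmb5, the chymotrypsin-like subunit and the main site at which bortezomib binds, averaged 4.10 ± 0.17 (SD, n = 5) in deficient, 4.35 ± 0.30 (n = 5) in adequate and 4.13 ± 0.18 (n = 5) in supplemented tumours. Its difference was -0.22 for supplemented against adequate tumours (95% interval -0.58 to 0.13, limma adjusted p = 1.000) and 0.02 for supplemented against deficient tumours (-0.34 to 0.38). Deficient against adequate tumours gave -0.24 for Psmb5, -0.39 for Psmb6 and -0.26 for Psmb7, each with an interval that spans 0. The last 2 values moved with single tumours: Psmb6 had -0.09 without the deficient tumour of replicate 4, and Psmb7 had -0.47 without the adequate tumour of replicate 1.

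The alpha ring, which gates the barrel, had 1 gene that stood out, Psma2. All 7 genes were below adequate tumours in deficient tumours and above deficient tumours in supplemented ones, with medians of -0.06 and 0.14. Psma2 stood at 2.73, 3.25, 2.18, 2.47 and 2.76 in deficient tumours, 3.70, 2.78, 3.11, 3.73 and 3.06 in adequate tumours and 2.90, 3.02, 3.19, 2.62 and 3.51 in supplemented tumours. The highest levels were those of adequate tumours, and the ranges overlapped. The means were 2.68 ± 0.40 in deficient and 3.28 ± 0.42 in adequate tumours (SD, n = 5 each), a difference of -0.60 (95% interval -1.11 to -0.09, limma adjusted p = 0.987). It ran from -0.97 to 0.47 within the slides, above 0 in 1 of 4. The other 6 alpha genes had differences of -0.07 to -0.01 in that comparison, and in supplemented against deficient tumours the 7 ran from 0.02 to 0.37.

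Among the 6 ATPases that unfold substrates, Psmc4 had the smallest p of all 62 genes. Its levels were 2.50, 2.49, 1.76, 1.82 and 2.91 in deficient tumours, 2.58, 2.78, 2.97, 2.94 and 2.80 in adequate tumours and 2.77, 2.81, 2.95, 3.18 and 2.66 in supplemented tumours. The deficient tumours of replicates 3 and 4, both on the same slide, were the lowest, and replicate 5 reached into the range of the other diets. The means were 2.87 ± 0.20 in supplemented and 2.30 ± 0.49 in deficient tumours, a difference of 0.58 (95% interval 0.14 to 1.02, limma adjusted p = 0.675). Deficient against adequate tumours (2.81 ± 0.16) gave -0.52 (-0.96 to -0.08, limma adjusted p = 0.987; SD, n = 5 each). The second probe of Psmc4 gave 0.47 and -0.39 for these comparisons. Within the slides the first ran from -0.25 to 1.39, above 0 in 3 of 4, and under normexp it was 0.19.

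The other 5 ATPases lay between 0.02 and 0.31 in supplemented against deficient tumours, with Psmc6 highest at 0.31 (95% interval -0.18 to 0.81). Psmc5, the only ATPase with a difference above 0 in deficient against adequate tumours, had 0.05 (-0.27 to 0.37). The remaining 10 subunits of the regulatory particle were all below adequate tumours in deficient tumours (median -0.15) and 9 of 10 above deficient tumours in supplemented ones (median 0.17), with 0 at an unadjusted p under 0.05. Psmd14, the zinc-dependent enzyme that cuts the ubiquitin chain off the substrate, averaged 0.76 ± 0.47 in deficient, 0.92 ± 0.45 in adequate and 1.06 ± 0.08 in supplemented tumours (SD, n = 5 each). The difference of supplemented against deficient tumours was 0.31 (95% interval -0.19 to 0.81). The deficient tumour of replicate 3 stood at -0.06 with the other 4 between 0.82 and 1.04, and without it the difference was 0.10. Deficient against adequate tumours gave -0.17, and 0.04 without that tumour. Psmd4, a ubiquitin receptor, was the 1 of 10 with a difference below 0 there, -0.10 (-0.39 to 0.20), and it had -0.16 for supplemented against adequate tumours.

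Psmd2, a scaffold subunit that holds ubiquitin receptors, was the steadiest member over the 15 tumours, with an SD of 0.14 and a range of 0.43. Its brightest probe gave 0.01 in supplemented against deficient tumours and its second probe 0.52, so this steadiness is that of 1 probe. Psmd4 and Psmd8 had SDs of 0.15 and 0.16. Psmd3, a subunit of the lid, spanned 1.45, from -0.39 to 1.03 within the deficient tumours alone. Of the chaperones that assemble the ATPase base, Psmd10 (gankyrin), Psmd5 and Psmd9 had differences of 0.24, 0.22 and -0.01 in supplemented against deficient tumours and of -0.13, -0.17 and -0.07 in deficient against adequate tumours. Their intervals all spanned 0.

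The activators that cap the core in place of the regulatory particle did not share a sign. Psme1 and Psme2, the interferon-induced pair, had -0.19 and -0.02 in deficient against adequate tumours, while Psme3, the nuclear activator, had 0.14 and Psme4, the large activator linked to histone breakdown, 0.16. In supplemented against deficient tumours Psme1, Psme2, Psme3 and Psme4 had 0.15, -0.03, 0.04 and -0.16. The second probe of Psme4 gave 0.004 there and 0.03 in deficient against adequate tumours. Without the 3 dimmest arrays the value of Psme4 for deficient against adequate tumours was -0.01, and under normexp that of Psme3 was -0.11. Psmc3ip, a factor of meiotic recombination, and Psme3ip1, which binds Psme3, had 0.01 and -0.27 in deficient against adequate tumours (95% intervals -0.41 to 0.43 and -0.59 to 0.05).

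**Figure D3:**
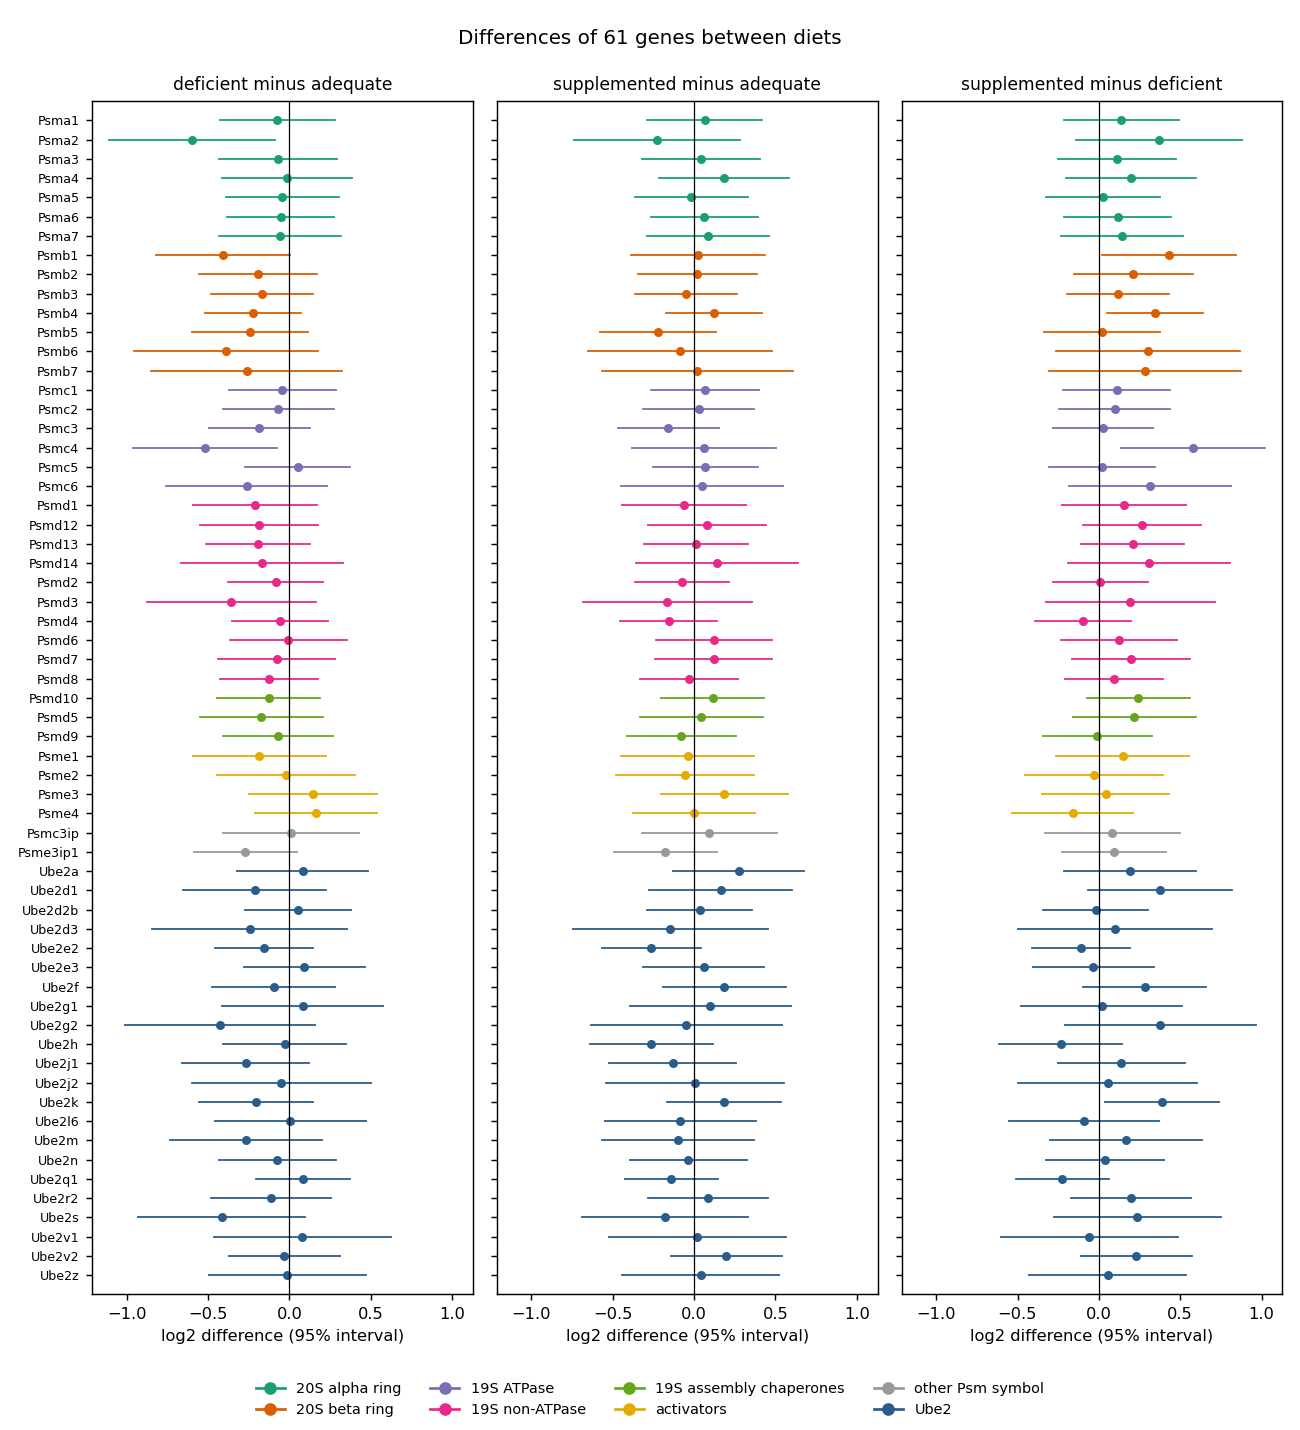
Log2 differences of 61 genes in deficient minus adequate, supplemented minus adequate and supplemented minus deficient tumours (n = 5 each), points with 95% intervals from limma, coloured by role. All 7 beta ring genes lie left of 0 in the first panel and right of 0 in the third, and 0 genes passed the adjusted test; under normexp 55 of all 62 members lay below 0 in the second comparison, against 26 without it.

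Among the Ube2 genes Ube2k, which builds the ubiquitin chains that the proteasome reads, had an unadjusted p under 0.05 for supplemented against deficient tumours. Its levels were 3.81, 4.07, 4.00, 4.25 and 4.18 in deficient tumours, 4.26, 4.06, 4.54, 4.57 and 3.92 in adequate tumours and 4.21, 4.59, 4.50, 4.63 and 4.33 in supplemented tumours. The lowest supplemented tumour lay just under the highest deficient one. The means of 4.45 ± 0.18 in supplemented and 4.06 ± 0.17 in deficient tumours (SD, n = 5 each) differed by 0.39 (95% interval 0.04 to 0.74, limma adjusted p = 0.701), by 0.15 to 0.50 within the slides and by -0.16 under normexp. After quantile normalization the difference was 0.35 and in the deposited values 0.17. The other probes of Ube2k gave -0.08 and 0.17, so its probes did not all share a sign and the brightest gave the largest value.

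**Figure D4:**
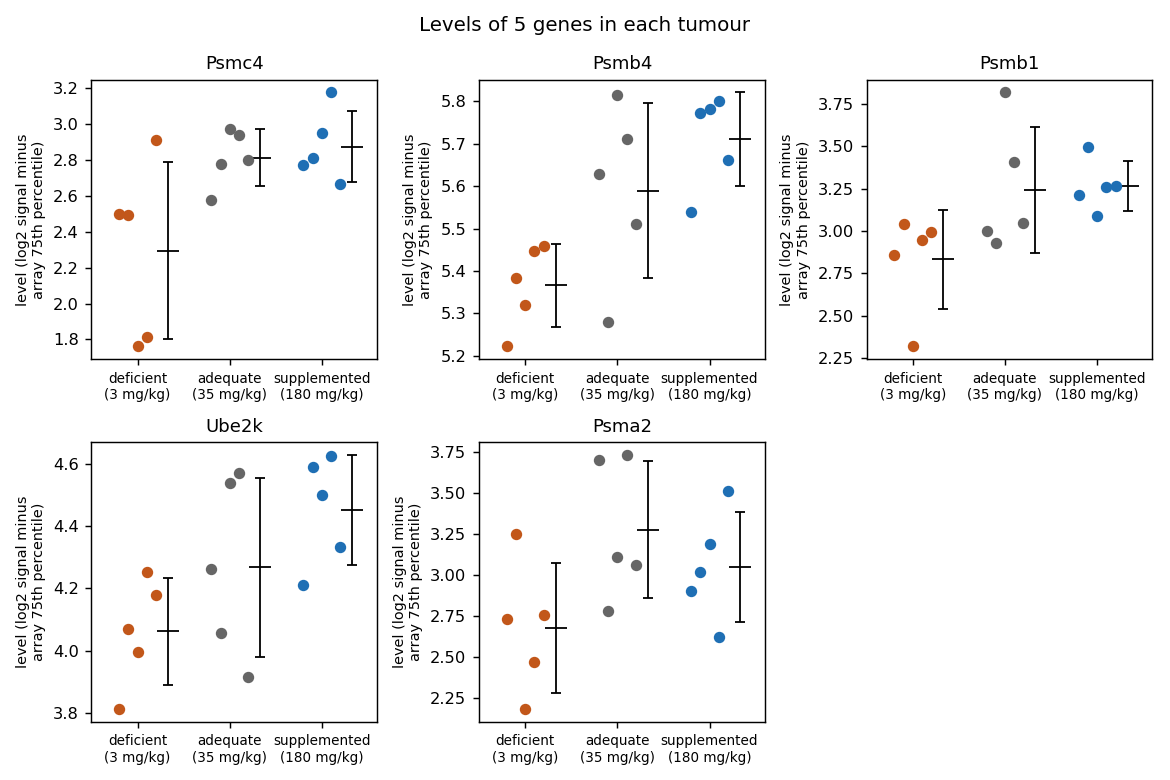
Levels of Psmc4, Psmb4, Psmb1, Ube2k and Psma2 (log2 signal minus the array's 75th percentile), one point per tumour by diet from 3 to 180 mg/kg of zinc, with the mean ± SD of 5 tumours; axes do not start at 0. Supplemented and deficient tumours do not overlap for Psmb4 and Psmb1 and overlap for the other 3 genes. The differences of Psmb4, Psmb1 and Ube2k were -0.04, -0.04 and -0.16 under normexp. In the deposited values they were 0.32, 0.29 and 0.17.

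The enzymes for other ubiquitin-like proteins gave small values. Ube2m and Ube2f, which conjugate NEDD8 to cullin ligases, had differences of 0.17 and 0.28 in supplemented against deficient tumours (95% intervals -0.30 to 0.64 and -0.10 to 0.66). That of Ube2m was -0.02 without the supplemented tumour of replicate 4, and that of Ube2f 0.16 without the deficient tumour of replicate 1. Ube2l6, the interferon-induced enzyme for ISG15, had -0.09 (-0.55 to 0.37). Ube2n, which builds the chains used in signalling and DNA repair, had 0.04, and its partners Ube2v1 and Ube2v2, which lack a catalytic cysteine, had -0.06 and 0.23. The second probe of Ube2n had the opposite sign, at -0.07, and so had the other probes of Ube2v1, at 0.04 and 0.40.

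In supplemented against adequate tumours, where 0 members had an unadjusted p under 0.05, the largest values were those of Ube2 genes. Ube2a, a partner of DNA damage tolerance ligases, averaged 2.97 ± 0.18 in supplemented and 2.69 ± 0.41 in adequate tumours (SD, n = 5 each), a difference of 0.27 (95% interval -0.13 to 0.68) that was 0.13 without the adequate tumour of replicate 4. Ube2e2 had -0.26 (-0.57 to 0.04) and Ube2h -0.26 (-0.64 to 0.12). Ube2v2, Ube2k, Ube2f and Psme3 had 0.20, 0.18, 0.19 and 0.19. Under normexp Ube2a, Ube2k, Ube2f and Psme3 turned to -0.27, -0.30, -0.32 and -0.24.

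Ube2q1 was the member with the smallest p among those lower in supplemented than in deficient tumours, with levels of 2.36, 2.14, 2.32, 2.62 and 2.42 in supplemented tumours against 2.55, 2.52, 2.59, 2.85 and 2.48 in deficient tumours. The difference was -0.22 (95% interval -0.51 to 0.06). Ube2h followed with -0.23, but its second probe gave 0.31. Of the members with several probes, 18 in all, the probes disagreed in sign in 7 for deficient against adequate, 6 for supplemented against adequate and 7 for supplemented against deficient tumours.

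Ube2s, which extends chains for the anaphase-promoting complex, spanned 1.51 over the 15 tumours, from 3.15 to 4.07 in deficient, 3.72 to 4.54 in adequate and 3.54 to 4.67 in supplemented tumours. Ube2d3, a broad-acting enzyme with close paralogs whose RNA may bind the same probe, spanned 1.51 as well, with low values of 3.26 in the deficient and 3.14 in the supplemented tumour of replicate 4. Ube2d2b, its paralog, was steady with an SD of 0.18. Ube2g2, an enzyme of breakdown at the endoplasmic reticulum, was well above background on 9 arrays, Ube2j1 on 10, Ube2g1 on 11 and Ube2j2 on 12, and 58 of 62 members on all 15. These 4 levels lay between -2.97 and -0.95, close to background, and carry little information on direction.

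The genes that the rule leaves out were measured too. The immunoproteasome subunits Psmb8, Psmb9 and Psmb10 had differences of 0.03, 0.01 and 0.09 in supplemented against deficient tumours and of -0.11, -0.22 and -0.08 in deficient against adequate tumours. Ube2c, which works with Ube2s in mitosis, spanned 4.03 over the 15 tumours with an SD of 1.02, wider than any member. Of 6 proliferation markers 4 had a named probe. All 4 were lower in deficient than in adequate tumours (background 55.8% below 0), with Pcna at -0.007. All 4 were also lower in supplemented than in adequate tumours (background 50.8% below 0), 1 with an unadjusted p under 0.05 (background 1.90%). Limma called 0 of them, and their part in the values of Ube2s and Ube2c was not tested. The mean of Ube2c was 0.04 ± 0.94 in deficient, 0.58 ± 0.90 in adequate and -0.37 ± 1.16 in supplemented tumours (SD, n = 5 each).

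Between tumours of 1 diet the proteasome genes varied together. With diet means removed, the median Pearson correlation over 15 tumours was 0.36 for the 666 pairs of proteasome genes, of which 83.8% were above 0. It was -0.00 for the 253 pairs of Ube2 genes, 0.12 between proteasome and Ube2 genes, 0.01 for all genes tested and 0.04 for all genes above background on 15 arrays. These pairs share the same 15 arrays, their brightness and their scaling. The value was 0.31 with a linear term in brightness removed and 0.36 without the 3 dimmest arrays. It was 0.85 with normexp, where the Ube2 pairs had 0.39, 0.22 after quantile normalization and 0.18 in the authors' deposited log2 values, with 0.01 for all genes in both of these.

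Alpha ring genes had a median of 0.64 over 21 pairs, and the 3 pairs of assembly chaperones 0.44. After quantile normalization these were 0.51 and 0.35, and in the deposited values 0.37 and 0.38. The medians were 0.37 for the ATPases (-0.03 in the deposited values), 0.27 for the other subunits of the regulatory particle, 0.21 for the beta ring and 0.20 for the activators. The beta ring had 0.40 with brightness removed, 0.36 without the 3 dimmest arrays and 0.09 after quantile normalization. The activators had -0.19 without the 3 dimmest arrays and -0.23 in the deposited values. The closest pairs were Psmc5 with Psmd2 at 0.96 and Psma5 with Psma7 at 0.92. Psmd9, Psma7, Psmc1 and Psmb4 had the highest median correlations with the other proteasome genes, 0.61, 0.60, 0.59 and 0.57 over 36 partners. Psmb4 was above 0 with all 36 of them. The lowest belonged to Psmd3 at -0.05 and Psmb7 at 0.02, and Psma2 had 0.11. Of the genes with the smallest p between diets, Psmc4 had 0.22 and Psmb1 0.32.

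With the levels used here, some Ube2 genes tracked the proteasome and others ran the other way. The median over all pairs of a proteasome with a Ube2 gene depended on the processing. It was 0.12 with these levels, 0.70 with normexp, 0.04 after quantile normalization and 0.05 in the deposited values. Ube2k had a median correlation of 0.54 with the 37 proteasome genes, Ube2e3 0.47, Ube2n 0.46 and Ube2f 0.41. Ube2j2, Ube2h, Ube2d2b and Ube2g1 had -0.38, -0.32, -0.29 and -0.27, of which Ube2j2 and Ube2g1 were near background on some arrays. Psmc3ip, which encodes no subunit, had 0.50. Psme1 and Psme2, whose products form 1 activator, correlated at 0.68, and Ube2n with its partner Ube2v1 at 0.28. The spread within diets was small: the median SD was 0.23 for the proteasome and 0.27 for the Ube2 genes, against 0.36 for all genes and 0.30 for all genes above background on 15 arrays.

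**Figure D5:**
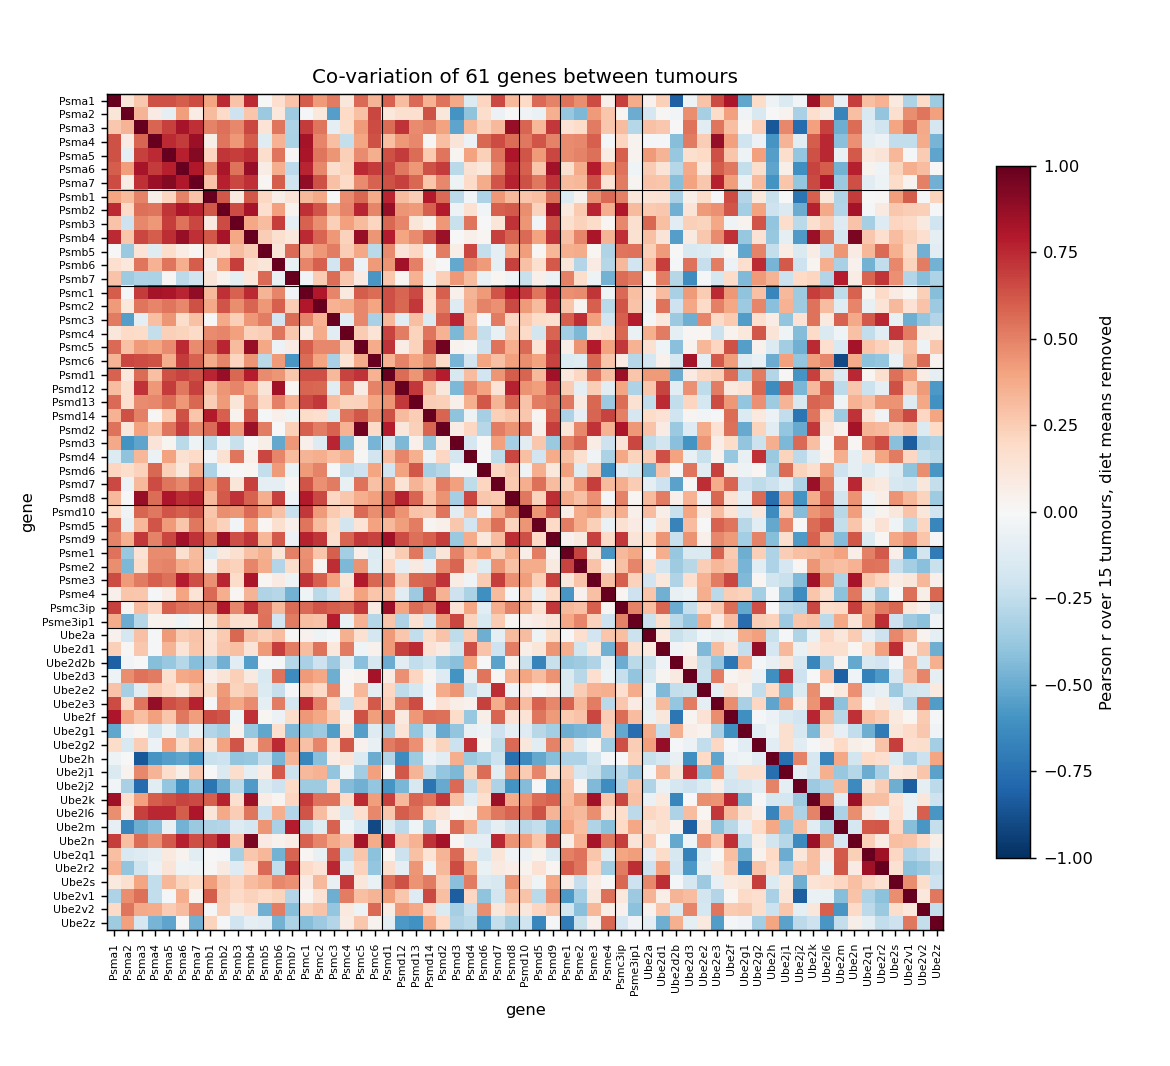
Pearson correlation of each pair of 61 genes over 15 tumours after removing diet means (blue below 0, red above 0), with genes ordered by role and lines between roles. The alpha ring block (top left, median 0.64) is red apart from the paler Psma2, and the Ube2 block (bottom right, median -0.00) holds both signs; under normexp the Ube2 median was 0.39.

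Around the proteasome, 41 other genes of the pathway were measured: assembly factors, ubiquitin genes, activating enzymes, shuttles, regulators, the cullin core and ubiquitin-like modifiers. Limma called 0 of 41 in each comparison. For supplemented against deficient tumours 3 had an unadjusted p under 0.05, all higher (background 6.10% of all genes, with 3.45% higher and 2.65% lower). There 27 of 41 were above 0 (background 54.4%), with a median of 0.06 against 0.03 for all genes tested. Vcp, the segregase that extracts ubiquitinated proteins, averaged 4.10 ± 0.10 in supplemented and 3.61 ± 0.24 in deficient tumours (SD, n = 5 each), a difference of 0.49 (limma adjusted p = 0.663). Nfe2l2, a regulator whose motif is marked above, had 3.34 ± 0.20 in supplemented and 2.85 ± 0.39 in deficient tumours, a difference of 0.49 (limma adjusted p = 0.703). Of the 3 regulators tested, from a list of 7, it was the 1 higher there and 2 were lower, with a median of -0.05. Nfe2l1 was not among those tested, and a link of Nfe2l2 to the proteasome levels was not tested. The inhibitor of the core Psmf1 had 0.47 in supplemented against deficient tumours (limma adjusted p = 0.708).

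For deficient against adequate tumours 29 of 41 were below 0 (background 55.8%), with a median of -0.08 against -0.03 for all genes tested. Psmf1 was the 1 gene with an unadjusted p under 0.05 (background 3.96%, with 2.52% lower). Its level was 2.29 ± 0.49 in deficient and 2.84 ± 0.27 in adequate tumours (SD, n = 5 each), a difference of -0.55 (limma adjusted p = 0.987). For supplemented against adequate tumours 21 were above and 20 below 0 (background 49.2% above and 50.8% below 0). The smallest p there was that of Uba2, a subunit of the SUMO activating enzyme (0.34, limma adjusted p = 1.000). The ubiquitin genes Ubb and Rps27a, of which Rps27a makes ubiquitin fused to a ribosomal protein, had 0.06 and -0.28 in supplemented against deficient tumours.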

How the data were processed

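RNA of 15 tumours was measured on single-colour Agilent rat arrays. The intensity values were background-subtracted and spatially detrended by the authors' scanner software, Agilent Feature Extraction, in version 11.5.1.1 per the file headers and 15.5 per the submitters' processing notes. The authors also deposited a table of log2 values, which served as an alternative; how it was normalized is not given in the sources used here. From the processed intensity, log2 minus the array's 75th percentile was computed, and spots of a probe were averaged. Of 41012 probes 17502 (42.7%) matched 1 gene through their accession in RefSeq (GRCr8). The filter kept probes that stood well above background on 5 or more of 15 arrays, 21011 in all with 40 missing values, of which 10710 had a symbol (8378 genes). The brightest probe stood for a gene.

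Limma 3.58.1 in R 4.3.3 fitted the 3 diets together (12 residual degrees of freedom), with Benjamini-Hochberg adjustment over all probes; motifs and summaries used Python 3.11.15. The script was tested on simulated data. Alternatives were normexp, quantile normalization, the deposited values, no filter, slide or replicate number as a block, array weights, brightness as a covariate, the mean over probes and leaving out arrays. The arrays held no mean signal column, so normexp used the median signals with an offset of 50. Same-numbered tumours of different diets did not deviate together (r from -0.281 to 0.224 over 15 pairs, 6 over 0.1), so the numbers were not taken as pairs. The 15 arrays, 5 per diet on 4 slides and 2 scan days, limit the precision.

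The genes described singly were the 5 members with the smallest p in each direction of each comparison, the 5 with the smallest and the 5 with the largest SD among those above background, the catalytic subunits, members near background and the genes left out; others were named after their values were seen. Members, lists and tests were chosen with earlier results of these data known. Values of some genes are not reported here, singly or in figures; counts and medians over lists include them.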

Additional observations from a re-analysis of the deposited data

Results flagged for a closer look

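Over all members, the genes left out and the list medians, in 15 of 204 groups of 5 tumours 1 tumour stood apart from the other 4 by more than 0.71 of the group's range, and chance sets apart about 1 in 20 groups. The deficient tumour of replicate 3 was low for Psme4, at 2.27 with the other 4 between 2.80 and 2.98, for Psmb1, at 2.32 with the others between 2.86 and 3.04, and for Psmd14, at -0.062 with the others between 0.82 and 1.04. The deficient tumour of replicate 4, whose array had the fewest spots well above background, was high for Ube2e2, at 3.65 with the others between 3.36 and 3.44, and low for Psma3, at 4.14 with the others between 4.41 and 4.51, and for Psmd12, at 1.87 with the others between 2.46 and 2.62. That of replicate 1 was low for Psma1, at 3.32 with the others between 3.82 and 3.98. Among supplemented tumours, replicate 4 was low for Ube2d3, at 3.14 with the others between 4.25 and 4.54, for Psmc6, at 2.63 with the others between 3.30 and 3.56, and for Ube2v1, at 0.93 with the others between 1.35 and 1.48. Replicate 2 was low for Psmb5, at 3.80 with the others between 4.17 and 4.27, and high for Psma3, at 4.68 with the others between 4.44 and 4.49. Replicate 3 was high for Psmd10, at 1.94 with the others between 1.66 and 1.74. The adequate tumour of replicate 1 was low for Psmb7, at 0.96 with the others between 1.88 and 2.02, and for Psme3ip1, at -0.14 with the others between 0.19 and 0.27.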

How the results depend on the processing

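Limma called 0 members in each comparison under every alternative run. The count at an unadjusted p under 0.05 for deficient against adequate tumours (2) was 1 with normexp or the slide as a block, 4 with the deposited log2 values or array weights, and 0 to 4 when single tumours were left out (0 without the adequate tumour of replicate 4, 4 without that of replicate 2, 1 without the deficient or the adequate tumour of replicate 3). For supplemented against adequate tumours (0) it was 7 with normexp, 1 with the slide as a block and 0 to 1 with a tumour left out. For supplemented against deficient tumours (5) it was 2 with normexp or no filter, 3 with array weights, 1 without the 3 dimmest arrays and 1 to 7 with a tumour left out (1 without the deficient tumour of replicate 1). With the replicate number as a block the counts were 2, 0 and 4, and 0 members were called, so this pairing changed no call.

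With a tumour left out, the proteasome median ran from -0.19 to -0.06 for deficient against adequate, -0.05 to 0.09 for supplemented against adequate and 0.09 to 0.18 for supplemented against deficient tumours, and the Ube2 median from -0.12 to -0.06, -0.02 to 0.06 and 0.05 to 0.17. Normexp gave -0.43 and -0.32 for supplemented against adequate and -0.20 and -0.12 for supplemented against deficient tumours; the cause was not tested. Within slide 2 deficient against adequate tumours gave 0.18 and 0.19, and supplemented against adequate tumours 0.33 for the proteasome. The median correlation of proteasome pairs was 0.85 with normexp, 0.22 after quantile normalization and 0.18 in the deposited values, alternatives chosen after seeing the data, as were the 0.31 with brightness removed and the 0.36 without the 3 dimmest arrays.

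Sign changes were counted for 30 differences only, those of the members with the smallest p in each direction of each comparison. Other described differences also changed sign with a tumour left out. Examples are Psmd14 for deficient against adequate and Ube2m for supplemented against deficient tumours. Among the 30 differences, 19 values changed sign. For deficient against adequate tumours these were Psme4 (-0.0131) and Ube2q1 (-0.0076) without the 3 dimmest arrays, Ube2q1 (-0.0093) with the mean over probes, Psme3 with normexp (-0.11) and the deposited values (-0.0235), Ube2a with normexp (-0.15), the deposited values (-0.0467) and without the adequate tumour of replicate 4 (-0.0616; up to 0.172 with other tumours left out), and Ube2e3 without the deficient tumour of replicate 3 (-0.0251; up to 0.199). For supplemented against adequate tumours normexp gave Ube2a -0.27, Ube2k -0.30, Ube2f -0.32, Psme3 -0.24 and Psme3ip1 0.0115, and the deposited values gave Psme3ip1 0.0035. For supplemented against deficient tumours normexp gave Psmb4 -0.0383, Psmb1 -0.0400 and Ube2k -0.16, and the mean over probes gave Ube2h 0.0374. The cause was not tested. A further 839 values kept their sign and moved little, and 42 moved by more than the spread.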
